A study of Mus musculus with 22 samples.

Results

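Deletion of carnitine acetyltransferase in the proximal tubule was examined in the oldest animals of the study, 24-month-old male C57BL/6J mice with chow in their sample titles. Members were taken by title: 5 Pt-CrAT libraries (CrAT24Mchow123, CrAT24Mchow124, CrAT24Mchow135, CrAT24Mchow136 and CrAT24Mchow146) and 5 fl/fl libraries (Wt24Mchow145, Wt24Mchow154, Wt24Mchow164, Wt24Mchow165 and Wt24Mchow168), which is 10 of the 22 libraries of the series. In Pt-CrAT mice the Ggt promoter drives Cre recombinase in proximal tubular cells and the Crat gene is floxed; fl/fl mice carry the floxed gene with no Cre promoter named. Floxed Crat alleles are thus common to both groups. Messenger RNA of kidney cortex was read by 3' tag sequencing, which places each read near the 3' end of a transcript. In such bulk tissue, fewer cells of a type and less RNA per cell cannot be told apart, and Crat RNA from cells in which the Cre is not active is counted with the rest. The remaining libraries, at 12 months with LFD in the title (3 and 3) and at 15 months with chow (3 and 3), entered the fit so that all groups share an estimate of spread, and the 15-month animals served for a test of whether the genotype difference depends on age. Nothing in the labels names a batch, litter or dissection day, nor says that replicates are anything beyond separate samples, so p-values measure the spread between these samples.

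Carnitine acetyltransferase is a mitochondrial and peroxisomal enzyme that passes acetyl groups between coenzyme A and carnitine. It lets acetyl units leave the mitochondrion as acetylcarnitine when fatty acids or pyruvate are oxidized faster than the citric acid cycle can use them, and so keeps free coenzyme A available. Proximal tubular cells draw most of their energy from fatty acid oxidation, reabsorb the bulk of the filtered solutes, and in male mice express a set of genes that depends on androgen.

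Total counts of the 10 libraries ran from 12199544 to 17447367, and mitochondrial transcripts took 4.67% to 6.34% of them. Kidney cortex identity was borne out by proximal tubule genes: the summed level of 25 markers of the S1 and S2 segments was 17651 to 21088 CPM (counts scaled to library size with TMM) in fl/fl and 14112 to 18546 CPM in Pt-CrAT. The TMM factors were 1.008 to 1.052 in fl/fl and 1.057 to 1.2 in Pt-CrAT. Each library's CPM is divided by its factor, so small differences between the groups depend on this scaling. All 4 Y-linked genes on the sex chromosome list were detected in every library, with Ddx3y at 72.2 to 89.5 CPM. The libraries differed among themselves in ways the genotype labels do not describe. Over the 10023 genes of the principal component analysis, component 1 (42.5% of the variance) ran from CrAT24Mchow136 at -35.8 to Wt24Mchow154 at 39.2, with other libraries of each genotype between them. Component 2 (23.8%) set CrAT24Mchow123 (27.6) and CrAT24Mchow136 (20.2) above the other 8, which lay between -19.9 and 8.63. Because these 2 libraries make up 2 of the 5 in their group, list medians and many of the genes below are given both with all 10 libraries and without these 2.

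**Figure D1:**
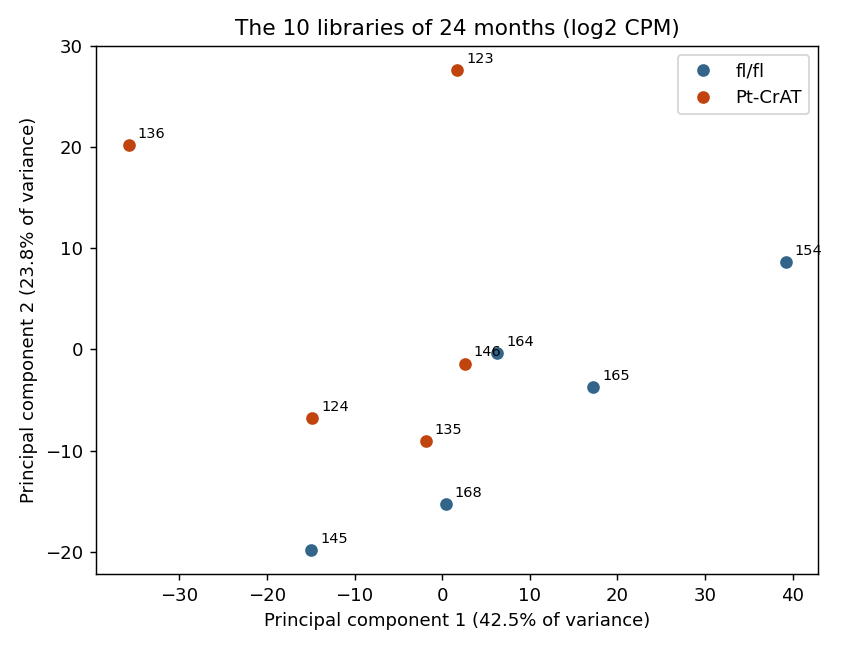
Scores of the 10 libraries on components 1 and 2 of log2 CPM, each point a library named by its replicate number, blue for fl/fl and red for Pt-CrAT. CrAT24Mchow123 and CrAT24Mchow136 sit highest on component 2, at 27.6 and 20.2, and Wt24Mchow154 and CrAT24Mchow136 mark the ends of component 1, at 39.2 and -35.8.

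The targeted gene was lower in every Pt-CrAT library. Crat (GRCm38 chr2:30400471-30415813, minus strand) stood at 43.5, 112, 73.8, 76.8 and 68.1 CPM in the fl/fl libraries, and at 38.3, 37.9, 38.9, 28.4 and 37.7 CPM in the Pt-CrAT libraries, in the order in which they are named above; values listed for all 5 libraries of a group keep this order throughout. The groups do not overlap, but Wt24Mchow145 (43.5 CPM) lay close to the highest Pt-CrAT library (38.9 CPM), and the fl/fl group spread far more widely (SD 24.4 CPM, n = 5) than the Pt-CrAT group (SD 4.41 CPM, n = 5). The log2 fold change was -1.04 (SE 0.21), and a two-sided exact permutation test on these levels returned p = 0.00794, the lowest that 5 against 5 allows. Over all genes, edgeR's quasi-likelihood test gave an adjusted p of 0.177. Crat was also among the genes with the highest loadings on component 1, on which Wt24Mchow154 is highest and CrAT24Mchow136 lowest; its level was highest and lowest in the same libraries. Without Wt24Mchow154 the log2 fold change of Crat was -0.85, and without CrAT24Mchow123 and CrAT24Mchow136 it was -0.98. The part of the gene that was deleted is not stated in the labels, and tags at its 3' end may come from transcripts that still hold the 3' end.

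Across the transcriptome no gene passed the adjusted threshold of 0.05 in edgeR (0 of 15064 tested, 0%). At an unadjusted p under 0.05 there were 1409 genes (9.35%), 621 higher (4.12%) and 788 lower (5.23%) in Pt-CrAT; the smallest adjusted p was 0.0771. DESeq2 called 8 genes, all lower in Pt-CrAT, among them Afg3l1, Ly6a, Msrb1, Paqr7, Mdh2, Acads and Uqcrc1. Limma-voom with weights per library called Klf2, Per1 and Adamts15; no gene was called by both, and its weights were lowest for CrAT24Mchow136 (0.394), Wt24Mchow154 (0.457) and CrAT24Mchow123 (0.523). Without CrAT24Mchow123 and CrAT24Mchow136, edgeR called 0 genes, 506 had an unadjusted p under 0.05, and the smallest adjusted p was 0.662. All 5 Pt-CrAT libraries lay above all 5 fl/fl libraries in 111 genes (0.737% of those tested) and below them in 120 (0.797%), together 231 genes (1.53%). Without the 2 libraries these counts were 281 (1.87%) and 256 (1.7%), and included 103 of the 111 and 112 of the 120. Genes separate with all libraries stay separate among fewer unless rescaling moves them, so these overlaps do not check the part of the 2 libraries. The median log2 fold change over all genes was 0.02, with 52.9% of genes higher in Pt-CrAT. In what follows, "higher" and "lower" therefore describe levels, and no gene named passed in edgeR with all libraries.

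Klf2, a transcription factor known from the response of endothelium to flow (chr8:72319033-72321656), had the smallest p of the genes higher in Pt-CrAT. Its level was 23.3, 24.3, 21.2, 19.4 and 21.3 CPM in fl/fl and 31.2, 43.5, 33.6, 46.3 and 29.5 CPM in Pt-CrAT. The lowest Pt-CrAT library was above the highest fl/fl library, and the difference did not rest on the 2 libraries that stand apart (log2 fold change 0.75, SE 0.13, edgeR adjusted p = 0.0771; 0.68 without them). Other endothelial genes did not show such a difference: of 14 markers on the endothelial list, which holds Klf2, 9 were higher and 5 lower, with a median of 0.05 (-0.03 without CrAT24Mchow123 alone). Stc1, which encodes the secreted glycoprotein stanniocalcin-1, read 6.29, 4.43, 6.64, 5.48 and 4.5 CPM in fl/fl against 14.9, 8.29, 12.2, 20.7 and 9.74 CPM in Pt-CrAT. Here too the groups are separate, with CrAT24Mchow136 and CrAT24Mchow123 the highest (log2 fold change 1.27, SE 0.24, edgeR adjusted p = 0.0878; 0.87 without these 2). Brpf1, a scaffold of histone acetyltransferase complexes, stood at 15.6 to 19.5 CPM in fl/fl and 23.3 to 29.5 CPM in Pt-CrAT (log2 fold change 0.62, SE 0.12, edgeR adjusted p = 0.103).

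Per1, a repressor of the circadian clock, was at 9.99, 20.3, 9.58, 9.10 and 8.72 CPM in fl/fl and at 26.1, 20.2, 20.2, 44.4 and 22.1 CPM in Pt-CrAT. The groups overlap only through Wt24Mchow154, whose level was about that of CrAT24Mchow124 and CrAT24Mchow135 (log2 fold change 1.21, SE 0.24, edgeR adjusted p = 0.129). Without CrAT24Mchow123 and CrAT24Mchow136 the log2 fold change was 0.84. Without Wt24Mchow154 it was 1.52 (edgeR adjusted p = 0.0052). Leaving out the only overlapping library was bound to widen the difference, so that p adds no support. Tsc22d3, which encodes the glucocorticoid-induced leucine zipper protein, stood at 26.1, 22.9, 17.3, 19.5 and 24.0 CPM in fl/fl and 27.7, 36.5, 34.8, 62.7 and 27.4 CPM in Pt-CrAT. Its groups are separate by a narrow margin, and CrAT24Mchow136 lies far above the rest (log2 fold change 0.78, SE 0.19, edgeR adjusted p = 0.352; 0.57 without the 2 libraries). The other genes among the 12 with the smallest p on this side were Id1, an inhibitor of helix-loop-helix transcription factors (log2 fold change 0.85); Abca1, which exports cholesterol (0.99); Ranbp3l (0.64); the AMPK-related kinase Nuak2 (0.84); the DNA repair scaffold Slx4 (0.64); Tspoap1 (0.90); and Slc5a3, the transporter of the osmolyte myo-inositol (0.71). Without CrAT24Mchow123 and CrAT24Mchow136 these 7 differences stayed positive, at 0.32 for Slc5a3 to 0.81 for Abca1.

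Promoter sequence is shown for 4 genes that the results turn on: Klf2, Per1 and Tsc22d3, whose levels were higher in Pt-CrAT, and Kap, the androgen-regulated gene described below. The bases come from RefSeq (GRCm38.p6) and lie 5' of a RefSeq transcription start within a window of 250 bases; bases inside a GENCODE M21 exon were left out. They cover chr8:72318812-72319032 (plus strand) for Klf2, chr11:69098699-69098947 (plus) for 1 of 2 Per1 starts, chrX:140600660-140600772 (minus) for 1 of 3 Tsc22d3 starts, and chr6:133853763-133853917 (minus) for Kap. Capitals mark the E-box CACGTG, to which clock proteins are known to bind, and the steroid receptor half-site AGAACA, searched on both strands (TGTTCT is its reverse complement).
Klf2: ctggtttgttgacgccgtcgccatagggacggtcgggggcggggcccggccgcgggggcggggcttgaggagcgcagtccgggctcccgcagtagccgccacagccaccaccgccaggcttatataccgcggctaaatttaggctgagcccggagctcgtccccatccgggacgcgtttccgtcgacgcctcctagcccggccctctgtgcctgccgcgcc
Per1: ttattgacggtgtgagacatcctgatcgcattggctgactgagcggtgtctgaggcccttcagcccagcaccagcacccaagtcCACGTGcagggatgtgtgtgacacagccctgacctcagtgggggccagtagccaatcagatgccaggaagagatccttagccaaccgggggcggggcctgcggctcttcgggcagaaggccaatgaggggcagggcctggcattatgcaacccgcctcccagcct
Tsc22d3: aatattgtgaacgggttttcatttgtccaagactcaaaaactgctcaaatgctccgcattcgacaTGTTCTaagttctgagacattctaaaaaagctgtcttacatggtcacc
Kap: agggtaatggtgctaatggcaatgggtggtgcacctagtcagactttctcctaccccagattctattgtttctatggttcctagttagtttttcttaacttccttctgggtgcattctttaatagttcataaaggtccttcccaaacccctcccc
The Per1 window shown holds 1 E-box, and the window of its other start holds 0. This Tsc22d3 window holds 1 half-site, and the windows of its other starts hold 0. Neither motif is in the 250 bases of Klf2 or Kap. Of all 32841 windows of 250 bases, 6.02% hold the E-box and 16.1% the half-site. Among 15 clock genes with an entry, 5 hold the E-box (33.3%), and among 16 androgen-responsive genes 1 holds the half-site (6.25%). These matches describe letters only; the counts are per gene and do not say which start was used.

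On the lower side, Adamts15, a secreted metalloprotease of the extracellular matrix (chr9:30899155-30922452), had the smallest p. It read 53.2, 56.4, 60.6, 68.2 and 80.1 CPM in fl/fl and 32.9, 43.0, 37.2, 23.2 and 32.9 CPM in Pt-CrAT. All 5 Pt-CrAT libraries were below all fl/fl libraries (log2 fold change -0.91, SE 0.16, edgeR adjusted p = 0.0771). Without the 2 libraries that stand apart the log2 fold change was -0.77. Msrb1, a selenoprotein that repairs oxidized methionine, was tight in fl/fl (408 to 451 CPM) and spread in Pt-CrAT, with 177 and 214 CPM in CrAT24Mchow123 and CrAT24Mchow136 and 308 to 367 CPM in the other 3. Paqr7, a membrane progestin receptor, had the same layout, at 337.1 to 376.7 CPM in fl/fl, 131 and 153 CPM in those 2 libraries and 199 to 319 CPM in the other 3. Leaving the 2 out took the log2 fold change of Msrb1 from -0.62 to -0.37 and that of Paqr7 from -0.73 to -0.44.

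Afg3l1, a subunit of a mitochondrial inner membrane protease, was at 259.6 to 326.4 CPM in fl/fl and 164.6 to 238.2 CPM in Pt-CrAT (log2 fold change -0.52, SE 0.12, edgeR adjusted p = 0.352). Pex16, which is needed to build peroxisomal membranes, was at 49.7 to 73.5 CPM and 33.6 to 49.5 CPM, so that the groups are barely separate. The remaining genes of this group were Ly6a, which encodes the surface protein Sca-1 (log2 fold change -0.43), Uap1l1 (-0.61), the apoptosis inhibitor Aven (-0.44), Smim1 (-0.54) and Kbtbd11 (-0.50). Leaving out the 2 libraries brought the differences of the 12 lower genes to between -0.98 for Crat and -0.31 for Ly6a.

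**Figure D2:**
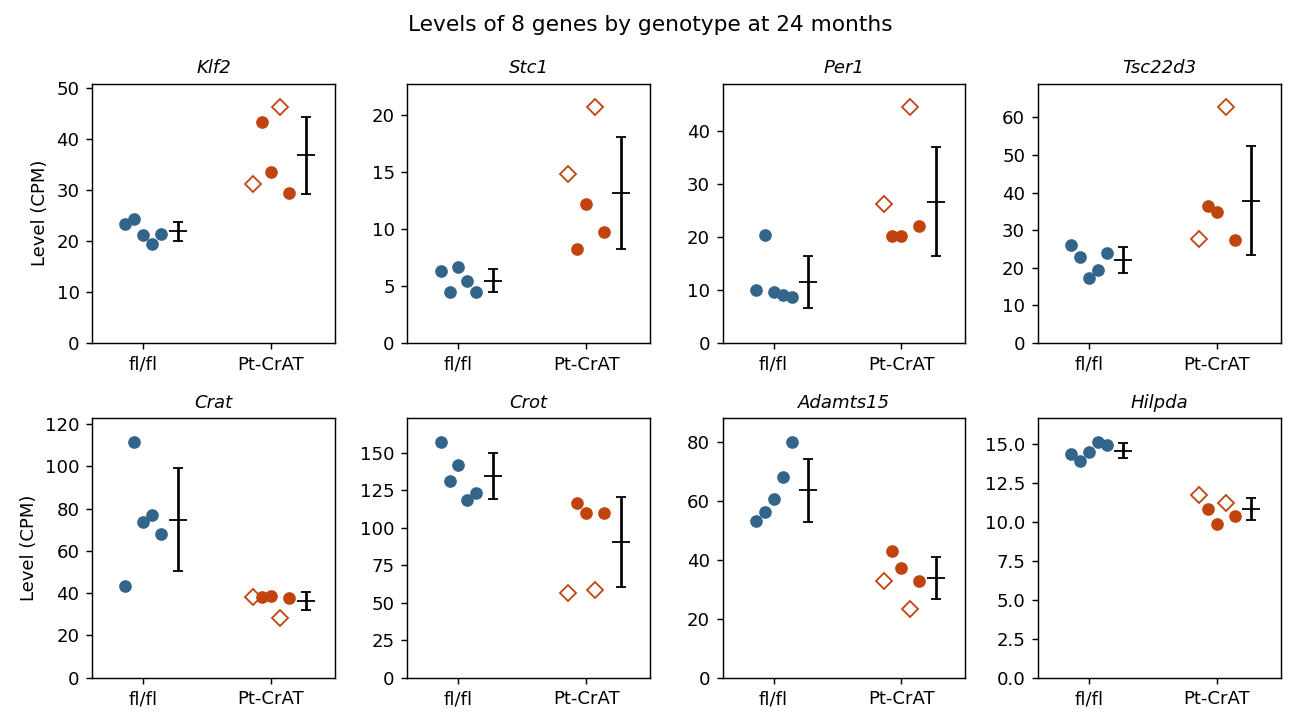
Level in CPM (linear axes from 0) of 8 genes in each library, fl/fl in blue and Pt-CrAT in red, with open diamonds for CrAT24Mchow123 and CrAT24Mchow136 and black bars for the mean ± SD of 5 libraries. Klf2, Stc1 and Tsc22d3 in Pt-CrAT lie above all fl/fl libraries, Crat, Crot, Adamts15 and Hilpda lie below them, and Per1 overlaps through 1 fl/fl library at 20.3 CPM.

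Crot, the peroxisomal carnitine octanoyltransferase that performs the same kind of reaction on medium-chain acyl groups, was the other carnitine acyltransferase whose groups were separate. Its level was 157, 131, 142, 119 and 123.4 CPM in fl/fl and 56.5, 116, 110, 58.8 and 110 CPM in Pt-CrAT. The gap between groups runs from 116 to 119 CPM, and CrAT24Mchow123 and CrAT24Mchow136 hold about as much as each other and much less than the rest (log2 fold change -0.57, SE 0.17, edgeR adjusted p = 0.449; -0.27 without them). The mitochondrial palmitoyltransferases were closer: Cpt2 had a log2 fold change of -0.34 and Cpt1a of -0.17 (-0.18 and -0.11 without the 2 libraries). The carnitine carriers Slc25a20, in the mitochondrial membrane, and Slc22a5, in the cell membrane, had log2 fold changes of 0.04 and 0.21. Of 10 genes of carnitine transfer and supply tested, Crat among them, 3 were higher and 7 lower, with a median of -0.17 (-0.10 without the 2 libraries and -0.07 without Wt24Mchow154 alone).

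Genes of fat oxidation were mostly lower in Pt-CrAT by small amounts. Of 20 genes of mitochondrial fatty acid oxidation 16 were lower, with a median log2 fold change of -0.14, and 4 of them had an unadjusted p under 0.05, beside 5.23% of all genes at that p and direction; over all genes 47.1% were lower. Acads, the short-chain acyl-CoA dehydrogenase, read 860, 1423, 983, 1137 and 922 CPM in fl/fl and 554, 744, 808, 442 and 897 CPM in Pt-CrAT. One Pt-CrAT library, CrAT24Mchow146, lay among the fl/fl values (log2 fold change -0.63, SE 0.17, edgeR adjusted p = 0.402; -0.40 without the 2 libraries). Acadm, the medium-chain enzyme, had a log2 fold change of -0.13. In peroxisomes, 13 of 17 genes were lower (median -0.15), led by Nudt19, which cleaves coenzyme A (-0.78; -0.41 without the 2 libraries), and the enoyl-CoA reductase Pecr (-0.59; -0.24 without them). Nudt19 is also on the androgen-responsive list described below. Without CrAT24Mchow123 and CrAT24Mchow136 the medians were -0.07 for mitochondria and -0.06 for peroxisomes.

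Targets of PPAR alpha, the nuclear receptor for fatty acids, lay on both sides. Of 17 tested, 7 were higher and 10 lower, with a median of -0.17. Without the 2 libraries 5 were higher (median -0.08), and without Wt24Mchow154 alone the median was -0.02. Angptl4, an inhibitor of lipoprotein lipase, was at 67.7 to 117 CPM in fl/fl and 24.2 to 69.2 CPM in Pt-CrAT, lowest in CrAT24Mchow123 (log2 fold change -0.59, SE 0.21, edgeR adjusted p = 0.461). Ppara itself (0.05), its coactivator Ppargc1a (0.24; 0.05 without the 2 libraries) and Pdk4 (-0.22, at under 1 CPM in every library) had log2 fold changes with SE of 0.16 to 0.43.

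Acetyl-CoA and acyl-CoA genes were lower in 19 of 25 cases (median -0.16; -0.09 without the 2 libraries). Slc25a1, the carrier that exports citrate from mitochondria as a source of cytosolic acetyl-CoA, read 76.6, 104, 77.0, 82.8 and 76.6 CPM in fl/fl and 68.9, 68.3, 68.6, 39.8 and 67.5 CPM in Pt-CrAT. The groups do not overlap, and 4 of the 5 Pt-CrAT libraries lie between 67.5 and 68.9 CPM (log2 fold change -0.41, SE 0.14, edgeR adjusted p = 0.461). Acat2, the cytosolic acetoacetyl-CoA thiolase, had a log2 fold change of -0.44 (-0.22 without the 2 libraries). Of 32 genes of pyruvate oxidation and the citric acid cycle 23 were lower, with a median of -0.08 (-0.04 without the 2 libraries). Mdh2, the mitochondrial malate dehydrogenase, was at 1131 to 1467 CPM in fl/fl and 840 to 1140 CPM in Pt-CrAT (log2 fold change -0.44, SE 0.12, edgeR adjusted p = 0.38). Pcx, pyruvate carboxylase, was at -0.47 and the pyruvate dehydrogenase kinases Pdk3 and Pdk1 at -0.62 and 0.42 (-0.33 and 0.04 without the 2 libraries). Pdk1 was at 24.4 CPM in CrAT24Mchow136 and at 8.96 to 12.6 CPM in the other 9 libraries.

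Subunits of the respiratory chain were lower in most cases. Complex I, the entry point for NADH, had 31 of 37 subunits lower (median -0.19), 8 of them at an unadjusted p under 0.05 (5.23% of all genes were lower at that p), and 30 of 37 lower without the 2 libraries (median -0.14). Ndufb2 stood at 303, 279, 302, 370 and 334 CPM in fl/fl and 210, 253, 257, 276 and 280 CPM in Pt-CrAT, where only CrAT24Mchow146 reached the lowest fl/fl value. Complex III had 6 of 9 lower (median -0.25), complex IV 9 of 12 (-0.06) and ATP synthase 14 of 17 (-0.17). Without the 2 libraries these medians were -0.15, -0.08 and -0.09. In mean log2 CPM against the fl/fl mean, Wt24Mchow154 was at -0.18 for complex I, -0.21 for complex III and -0.25 for complex IV. Among the Pt-CrAT libraries only CrAT24Mchow123 was lower for complexes I and III, and none was for complex IV. Groups were separate for Uqcr10 of complex III (1221 to 1515 CPM in fl/fl, 931 to 1215 CPM in Pt-CrAT) and for Atp5e and Atp5d of ATP synthase, at 312 to 371 against 228 to 309 CPM and 608 to 732 against 496 to 589 CPM. The Uqcr10 groups overlapped once the 2 libraries were left out and the rest rescaled. Of 8 protein-coding transcripts of the mitochondrial genome tested, 7 were lower (median -0.25; -0.16 without the 2 libraries), with mt-Co1 at 817 to 976 CPM in fl/fl and 680 to 877 CPM in Pt-CrAT. Some subunits were on the other side with groups that overlap widely: Cox7c read 188, 22.2, 53.3, 37.0 and 88.1 CPM in fl/fl and 58.9, 144, 92.5, 199 and 76.9 CPM in Pt-CrAT, and Ndufa1 20.8 to 152 CPM in fl/fl alone. Cox7c is among the genes with the largest loadings on component 1. Sod1, the cytosolic superoxide dismutase, was lower without overlap with all libraries (3506 to 4237 CPM in fl/fl, 2540 to 3505 CPM in Pt-CrAT). No gene of the antioxidant list, Sod1 included, was lower without overlap once the 2 libraries were left out and the rest rescaled. The list was split 13 to 13, with a median of 0.03 (-0.03 without the 2 libraries).

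**Figure D3:**
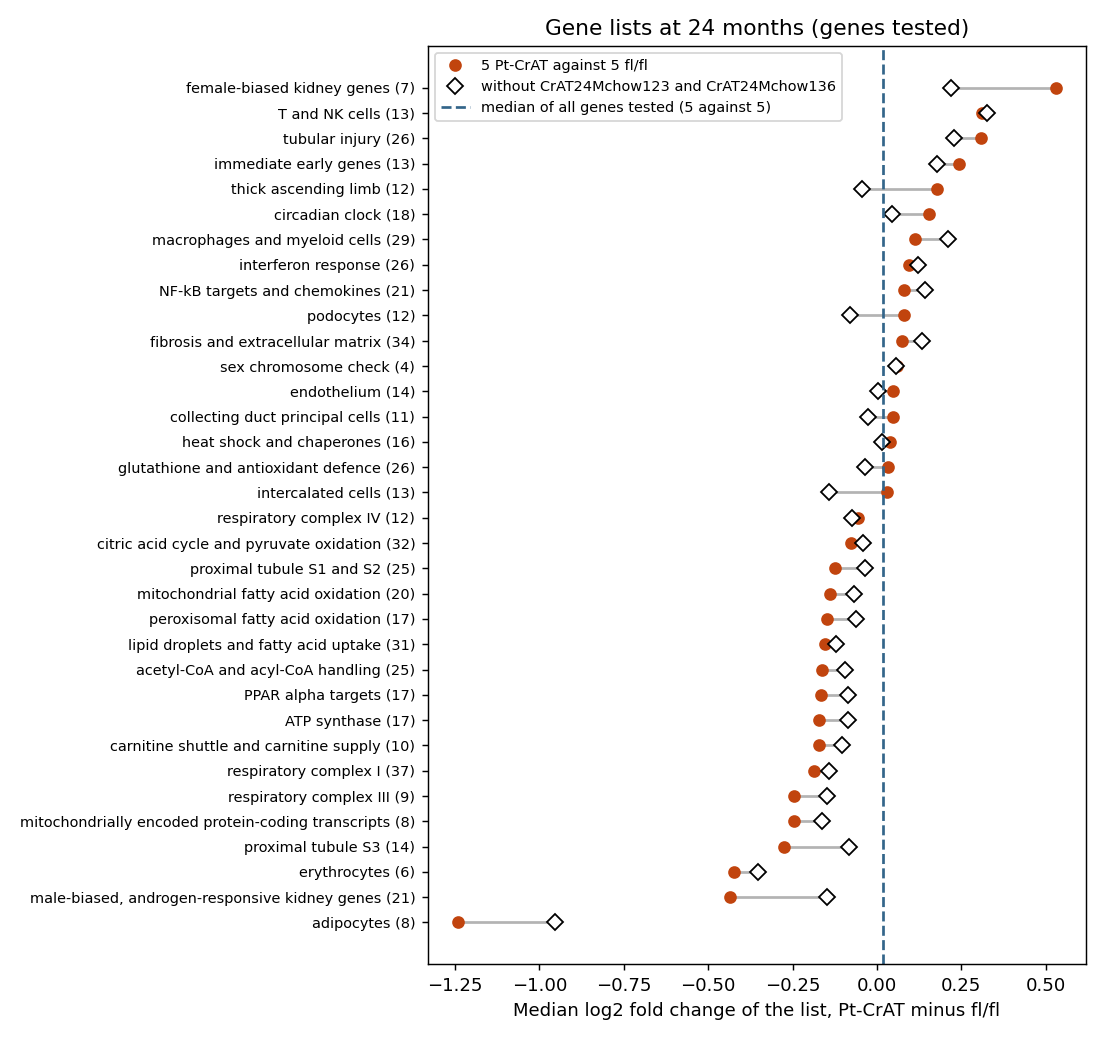
Median log2 fold change (Pt-CrAT minus fl/fl) of 34 gene lists, red circles with all 10 libraries and open diamonds without CrAT24Mchow123 and CrAT24Mchow136, with the number of genes tested in brackets and a dashed line at the median of all genes, 0.02. Lists of oxidation and respiration lie left of that line in both, and the androgen-responsive and S3 lists move from -0.43 to -0.15 and from -0.27 to -0.08 once the 2 libraries are left out.

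CrAT24Mchow123 and CrAT24Mchow136 were set apart by low levels of male-typical proximal tubule transcripts. Kap, the kidney androgen-regulated protein and among the most abundant transcripts of male mouse kidney, was at 32398, 32201, 24284, 28255 and 29311 CPM in fl/fl and at 4565, 18928, 28807, 2853 and 22860 CPM in Pt-CrAT. CrAT24Mchow135 lies within the fl/fl range, CrAT24Mchow124 and CrAT24Mchow146 lie below it, and CrAT24Mchow136 and CrAT24Mchow123 lie far below all others (log2 fold change -0.91; -0.33 without these 2). Slco1a1, an organic anion transporter, was at 27.8 to 122 CPM in fl/fl, at 24.1 to 79.7 CPM in 3 Pt-CrAT libraries, and at 3.47 and 1.06 CPM in CrAT24Mchow123 and CrAT24Mchow136. Slc22a7, another organic anion transporter, was at 14.3 to 52.3 CPM in fl/fl and at 2.42 and 1.65 CPM in these 2, against 21.7 to 39.3 CPM in the other 3. Pzp, a protease inhibitor, Ugt2b37, a glucuronosyltransferase, the acyl-CoA synthetase Acsm3, Sec14l3 and the hydroxysteroid dehydrogenase Akr1c14 complete the 8 genes with the widest gap on this side. These genes were picked for that gap, so their values describe the libraries and are no test.

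Among 21 male-biased, androgen-responsive kidney genes 20 were lower in Pt-CrAT (median -0.43), and without the 2 libraries 15 were lower and 6 higher (median -0.15). Their summed level was 28577 to 38919 CPM in fl/fl, mostly Kap, and 6108 to 34165 CPM in Pt-CrAT. Odc1, the ornithine decarboxylase that starts polyamine synthesis, was at 85.9, 32.3, 34.7, 54.1 and 80.7 CPM in fl/fl and 16.2, 32.5, 61.1, 13.0 and 29.8 CPM in Pt-CrAT (log2 fold change -0.91, SE 0.36, edgeR adjusted p = 0.468). Wt24Mchow154 and Wt24Mchow164 were thus as low as CrAT24Mchow124 and CrAT24Mchow146. Genes that female kidneys express more leaned the other way: 5 of 7 were higher (median 0.53), and 6 of 7 without the 2 libraries (median 0.22). In mean log2 CPM against the fl/fl mean, CrAT24Mchow136 was at 0.94 and CrAT24Mchow123 at 0.75. CrAT24Mchow146 (0.65), Wt24Mchow164 (0.62) and CrAT24Mchow124 (0.60) came near them, while CrAT24Mchow135 was at -0.10. Cyp4a14, a fatty acid omega-hydroxylase, stood at 58.2, 370, 672, 399 and 141 CPM in fl/fl and 1625, 338, 142, 2338 and 635 CPM in Pt-CrAT, with the 2 libraries far above all others. Prlr, the prolactin receptor, was at 84.5 and 119 CPM in the 2 libraries and at 14.7 to 68.8 CPM in the other 8; Slc7a12 was at 5.90 and 7.28 CPM against 0.699 to 3.85 CPM. Hao2, the hydroxyacid oxidase, was also higher in Pt-CrAT (log2 fold change 0.53, SE 0.24). It did not set the 2 libraries apart, at 108 and 211 CPM in the 2 and 65.0 to 186 CPM in the rest.

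Other transcripts marked the same 2 libraries on the high side. Gc, the vitamin D-binding protein, was at 19.3 and 39.5 CPM in CrAT24Mchow123 and CrAT24Mchow136 and at 0.933 to 4.75 CPM in the other 8. Gsta4, a glutathione transferase for lipid peroxidation products, was at 54.5 and 77.2 CPM against 13.0 to 23.5 CPM. Apoe, the lipoprotein component apolipoprotein E, was at 402 and 483 CPM against 118 to 200 CPM, and the carbonyl reductase Cbr3 at 12.8 and 13.0 CPM against 2.39 to 5.38 CPM. Cyp24a1, which inactivates vitamin D, and Cyp2d26 were also higher in these 2 libraries, and S100a8, a neutrophil protein, was at 56.0 and 47.0 CPM in them and 9.30 to 18.8 CPM in the other 3 Pt-CrAT libraries, but at 11.04 to 65.01 CPM in fl/fl. Crat was not among the genes that separate them: at 38.3 CPM, CrAT24Mchow123 sat with the other Pt-CrAT libraries.

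**Figure D4:**
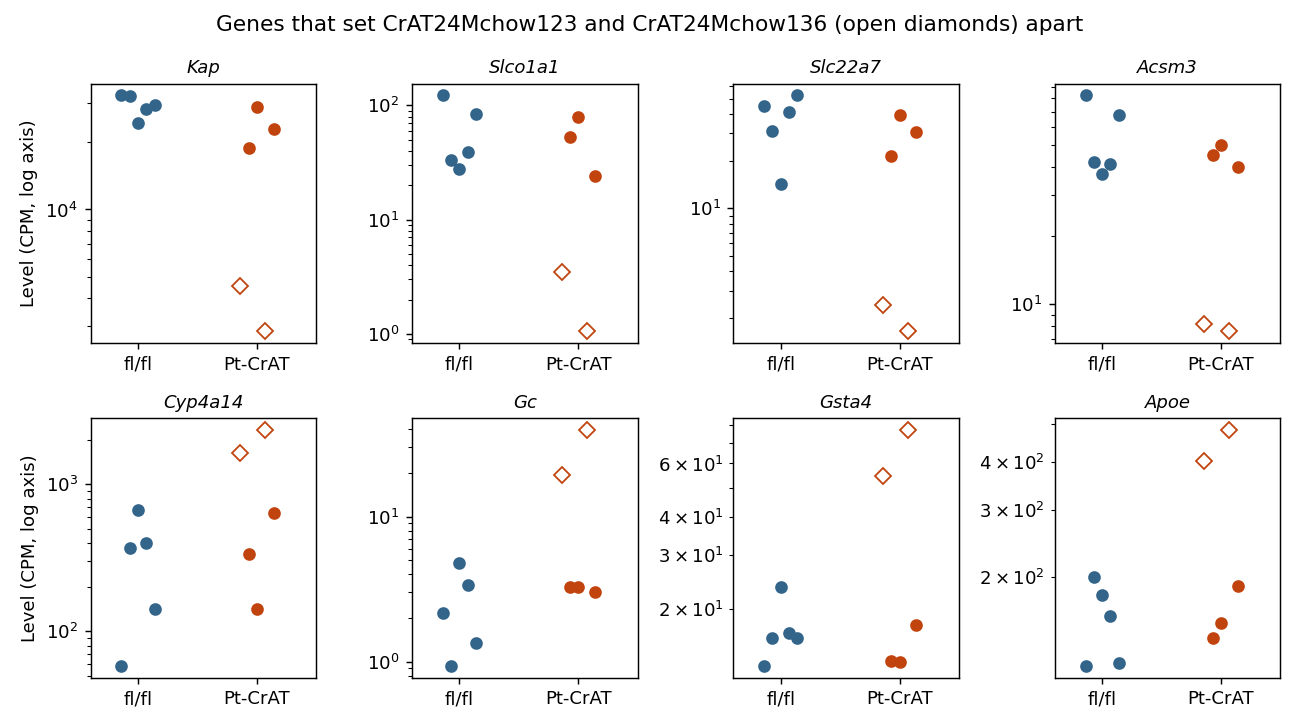
Level in CPM on log axes of 8 genes in each library, blue for fl/fl and red for Pt-CrAT, open diamonds for CrAT24Mchow123 and CrAT24Mchow136. Kap, Slco1a1, Slc22a7 and Acsm3 are lowest and Cyp4a14, Gc, Gsta4 and Apoe highest in the diamonds, while the other 3 Pt-CrAT libraries lie among or near the 5 fl/fl libraries.

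The segments of the proximal tubule differed in how far they rested on these libraries. The S3 segment, the straight part, where several androgen-responsive transporters are expressed, had 12 of 14 markers lower (median -0.27; -0.08 without the 2 libraries). The lists share Slc7a13, Acsm3, Cyp7b1 and Napsa, so they are not independent. Atp11a, a phospholipid flippase, read 423, 261, 244, 280 and 350 CPM in fl/fl and 96.9, 261, 309, 86.6 and 253 CPM in Pt-CrAT, where only the 2 libraries are outside the fl/fl range. Ggt1, the brush-border transpeptidase whose promoter drives the Cre, was at 2856, 3868, 2837, 3533 and 2972 CPM in fl/fl and 1832, 2342, 2923, 1324 and 2698 CPM in Pt-CrAT (log2 fold change -0.53, SE 0.17, edgeR adjusted p = 0.461; -0.29 without the 2 libraries). In the S1 and S2 segments 16 of 25 markers were lower (median -0.13), and 13 of 25 without the 2 libraries (median -0.04). Amn, the membrane anchor of the cubilin receptor, was separate between groups at 259 to 305 CPM in fl/fl and 172 to 241 CPM in Pt-CrAT (log2 fold change -0.37, SE 0.11, edgeR adjusted p = 0.461; -0.22 without the 2 libraries). The glucose transporter Slc5a2 (-0.50), the phosphate transporter Slc34a1 (-0.33) and the endocytic receptor Lrp2 (0.30) did not share a direction; without the 2 libraries they were at -0.27, -0.12 and 0.37.

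The direction of 4 lists for other parts of the nephron turned when the 2 libraries were left out. The thick ascending limb had 9 of 12 genes higher (median 0.18), but 4 of 12 without the 2 libraries (median -0.04). Its potassium channel Kcnj1 was at 110 CPM in CrAT24Mchow136 and 29.7 to 61.6 CPM elsewhere, and Umod, the uromodulin gene, had a log2 fold change of -0.05. Principal cells of the collecting duct had 8 of 11 genes higher (median 0.05), but 5 of 11 without the 2 libraries (median -0.03), with the water channel Aqp2 at 991 and 1010 CPM in the 2 libraries and 336.5 to 745.3 CPM in the rest. For intercalated cells 7 of 13 were higher (median 0.03), but 5 of 13 without the 2 libraries (median -0.14). Foxi1, their defining transcription factor, was separate between groups, with fl/fl libraries at 10.9, 3.27, 10.3, 8.95 and 9.28 CPM and Pt-CrAT libraries at 13.4, 14.0, 12.4, 23.2 and 12.4 CPM. Podocyte markers were higher in 8 of 12 cases (median 0.08), but in 4 of 12 without the 2 libraries (median -0.08). The part of these segments in the differences of the proximal tubule genes was not tested.

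Injury markers were higher in most cases. Of 26 genes of injured or failed-repair tubules tested, 20 were higher in Pt-CrAT (median 0.31), 5 of them at an unadjusted p under 0.05 (4.12% of all genes were higher at that p), and 16 were higher without the 2 libraries (median 0.23). Spp1, osteopontin, stood at 105, 61.0, 76.3, 88.0 and 93.0 CPM in fl/fl and 117, 97.5, 112, 182.6 and 111 CPM in Pt-CrAT. Only CrAT24Mchow124 lay within the fl/fl range, below Wt24Mchow145 (log2 fold change 0.55, SE 0.17, edgeR adjusted p = 0.461; 0.33 without the 2 libraries). Cd44, a hyaluronan receptor, was at 1.40 to 3.24 CPM in fl/fl and 3.01 to 5.94 CPM in Pt-CrAT, and its difference was no smaller without the 2 libraries (0.94 against 0.79). Cp, ceruloplasmin, was high in CrAT24Mchow123 and CrAT24Mchow136 (116 and 95.6 CPM) and at 41.3 to 64.8 CPM elsewhere, and Lcn2 was at 8.08 CPM in CrAT24Mchow136 and 1.36 to 3.60 CPM elsewhere; without the 2 libraries their log2 fold changes went from 0.66 to 0.24 and from 0.97 to 0.26. Havcr1, which encodes the injury marker KIM-1, was at 0.7 to 8.72 CPM in fl/fl and 2.51 to 11.5 CPM in Pt-CrAT (log2 fold change 0.35, SE 0.45). Cdkn1a, the cell cycle inhibitor p21, did not separate the groups either (0.14, SE 0.21).

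Most genes on each of 4 immune and inflammatory lists were higher with all libraries, but the medians rested on single libraries. Without Wt24Mchow168 the median was -0.0011 for macrophage and myeloid genes and -0.0053 for NF-kB genes, without CrAT24Mchow146 it was 0.05 for T and NK cell genes, and without CrAT24Mchow123 it was 0.0053 for interferon-response genes. Of 29 macrophage and myeloid genes 21 were higher (median 0.11), and 24 without CrAT24Mchow123 and CrAT24Mchow136 (median 0.21). Lyz2, the myeloid lysozyme, was at 40.3 to 76.4 CPM in fl/fl and 48.6 to 129 CPM in Pt-CrAT, highest in CrAT24Mchow146, and Cd68 had a log2 fold change of 0.23 (SE 0.23). T and NK cell genes were higher in 9 of 13 cases (median 0.31; 0.32 without the 2 libraries) at summed levels of 23.7 to 45.1 CPM in fl/fl and 29.4 to 47.3 CPM in Pt-CrAT. Interferon-response genes were higher in 17 of 26 (median 0.09; 0.12 without the 2 libraries). B2m, the light chain of class I antigen presentation, was at 115 to 162 CPM in fl/fl and 144 to 235 CPM in Pt-CrAT, and the T cell chemoattractants Cxcl9 and Cxcl10 had log2 fold changes of 0.82 and 0.84. Of 21 NF-kB genes 13 were higher (median 0.08; 0.14 without the 2 libraries), with Nfkb1 at 6.82 to 9.73 and 8.81 to 12.1 CPM and the inhibitor Nfkbia at 107 to 125 and 122 to 200 CPM. Ccl2, a monocyte chemoattractant, had 1, 2, 1, 0 and 1 counts in the fl/fl libraries and 2, 10, 15, 11 and 9 counts in the Pt-CrAT libraries. CrAT24Mchow123 alone of the Pt-CrAT libraries was at the fl/fl level, and at so few reads the size of the difference is poorly set. No fl/fl library of 24 months held enough Ccl2 reads to pass the filter on low counts. Ccl2 was therefore tested only through other libraries, and its direction is no support for a difference. C3 was at 22.2 to 29.3 CPM in fl/fl and 22.4 to 51.8 CPM in Pt-CrAT (log2 fold change 0.50, SE 0.18, edgeR adjusted p = 0.461), and Vcam1 had a log2 fold change of 0.20.

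Of 34 genes of fibrosis and extracellular matrix 21 were higher (median 0.08; 0.13 without the 2 libraries). Col1a1 was at 12.29 to 20.96 CPM in fl/fl and 12.8 to 28.0 CPM in Pt-CrAT, and Col3a1 at 2.41 to 9.92 and 3.34 to 9.07 CPM. Fn1 (log2 fold change -0.24, SE 0.22) and Tgfb1 (-0.32, SE 0.19) were on the other side of 0. Acta2, the smooth muscle actin, was at 29.0 to 45.9 CPM in fl/fl and 39.1 to 56.0 CPM in Pt-CrAT (log2 fold change 0.39, SE 0.16, edgeR adjusted p = 0.475). The direction of Col1a1, Col3a1, Fn1, Havcr1 and Cdkn1a turned when single libraries or the 2 libraries were left out.

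Clock and immediate early genes differed between libraries as well as between groups. Besides Per1, its paralogue Per2 read 8.59, 5.37, 3.62, 3.16 and 4.92 CPM in fl/fl and 3.87, 8.29, 11.4, 35.6 and 9.09 CPM in Pt-CrAT, Cry1 was at 12.3 CPM in CrAT24Mchow136 and 1.66 to 3.50 CPM elsewhere, and Bhlhe40 at 140 CPM there and 40.7 to 68.4 CPM elsewhere. Nr1d1, a repressor that peaks at another phase of the day, was lowest in CrAT24Mchow136 (16.2 CPM) and highest in Wt24Mchow154 (58.3 CPM). Without CrAT24Mchow123 and CrAT24Mchow136, log2 fold changes were 0.84 for Per1, 0.89 for Per2, 0.30 for Bhlhe40, 0.12 for Cry1 and -0.63 for Nr1d1. The hour of tissue collection is not in the labels, and its part in these values was not tested. Of 18 clock genes 13 were higher (median 0.15; 0.05 without the 2 libraries). Among 13 immediate early genes 9 were higher (median 0.24; 0.18 without the 2 libraries), but Egr1, the growth response factor, was lower without overlap: 21.03, 24.96, 17.1, 20.4 and 42.5 CPM in fl/fl and 13.4, 10.03, 10.5, 12.8 and 10.2 CPM in Pt-CrAT (log2 fold change -1.15, SE 0.35, edgeR adjusted p = 0.461). Klf6 was separate in the other direction, at 38.8 to 46.2 against 46.3 to 74.9 CPM (log2 fold change 0.41, and 0.18 without the 2 libraries). Its groups overlapped once the 2 libraries were left out and the rest rescaled. The inducible chaperone Hspa1b was at 1.09 to 2.53 CPM in fl/fl, 2.65 to 3.63 CPM in 4 Pt-CrAT libraries and 14.9 CPM in CrAT24Mchow136, while the 16 chaperone genes were split 8 to 8.

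**Figure D5:**
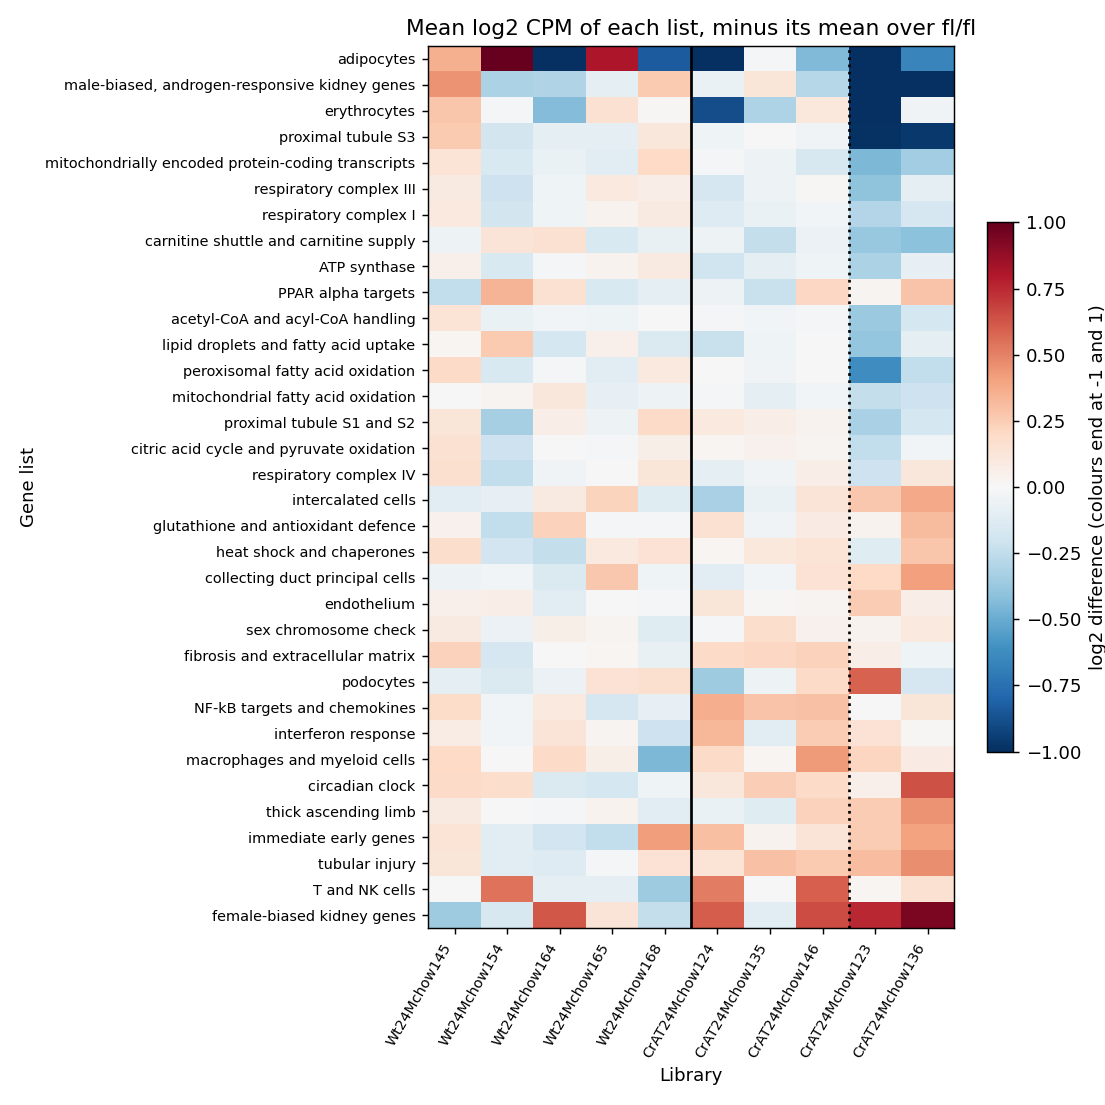
Mean log2 CPM of each of 34 gene lists (rows) in each library (columns), minus its mean over the 5 fl/fl libraries, in colour from blue (lower) to red (higher). The solid line divides fl/fl from Pt-CrAT and the dotted line sets off CrAT24Mchow123 and CrAT24Mchow136, in which the androgen-responsive list is at -1.55 and -1.74 and the S3 list at -0.99 and -0.97; adipocyte genes vary most, from -2.07 to 1.14.

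Lipid storage genes need to be read beside the levels of adipocyte markers. Of 31 genes of lipid droplets and fatty acid uptake 22 were lower (median -0.15; -0.12 without the 2 libraries and -0.06 without Wt24Mchow154 alone). Hilpda, an inhibitor of the lipase that breaks down droplets, read 14.3, 13.9, 14.5, 15.1 and 14.9 CPM in fl/fl and 11.7, 10.8, 9.86, 11.2 and 10.4 CPM in Pt-CrAT. Both groups are tight and separate (log2 fold change -0.43, SE 0.13, edgeR adjusted p = 0.461 with all libraries). Without the 2 libraries the log2 fold change was -0.50. Adipocyte markers were lower in 7 of 8 cases (median -1.24; -0.95 without the 2 libraries), with a summed level of 81.7 to 329 CPM in fl/fl and 67.4 to 184 CPM in Pt-CrAT. They vary as much within fl/fl: Cfd was at 30.4, 119, 4.30, 68.6 and 9.21 CPM there and 1.57 to 18.0 CPM in Pt-CrAT, and the defining adipokine Adipoq at 0.226 to 8.24 and 0.197 to 2.12 CPM. Car3, which fat expresses strongly, was at 48.3 to 192 and 27.6 to 103 CPM. The 2 lists share Fabp4, Plin1 and Cidec, and the part of fat tissue in the lipid genes was not tested. All 6 erythrocyte genes were lower (median -0.42; -0.35 without the 2 libraries), with Hbb-bs at 643 to 994 CPM in fl/fl and 271 to 872 CPM in Pt-CrAT, lowest in CrAT24Mchow123.

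Whether the genotype difference depended on age was asked against the 15-month chow animals, which share no library with those of 24 months. No gene passed the test of the difference between ages in edgeR (0%; 2255 genes at an unadjusted p under 0.05, smallest adjusted p 0.112), whereas DESeq2 called 23 and limma-voom with library weights more than that. For Crat the 24-month difference minus the 15-month difference was -1.65 on the log2 scale (edgeR adjusted p = 0.266). At 15 months the libraries labelled Pt-CrAT held 63.1, 72.6 and 71.8 CPM of Crat and those labelled fl/fl 41.5, 34.3 and 60.02 CPM, so the targeted gene went against those labels and a direction drawn from that age rests on labels that Crat does not bear out. Klf2 was at 19.9, 20.2 and 17.7 CPM in the libraries labelled Pt-CrAT at 15 months and 22.9, 23.4 and 26.3 CPM in those labelled fl/fl, opposite to 24 months (difference between ages 1.08, edgeR adjusted p = 0.201). Of the other genes named here, Smim1 (-0.82), Slc25a1 (-0.70), Hspa1b (3.28) and Foxi1 (1.81) also had separate groups in opposite directions at the 2 ages, none passing the test.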

How the data were processed

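Polyadenylated RNA of kidney cortex was measured per library with the Lexogen QuantSeq 3' FWD kit, per the labels' protocols. The authors deposited a table of raw read counts per gene (16556 genes, 22 libraries); a normalized version and a table of totals were not used here. The genome build was GRCm38, and R 3.4.3 and DESeq2 1.18.1 are named, per the submitters' processing notes. For the aligner, counter, strand setting and annotation: not given in the sources used here. Counts of overlapping or near-identical genes are uncertain. GENCODE M21 gave symbols and coordinates for 16514 genes.

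Groups were taken from titles. The counts were fitted with edgeR 4.0.16 (R 4.3.3): TMM scaling, filterByExpr over 6 groups (15064 genes left), robust quasi-likelihood test, 22 libraries, 16 residual degrees of freedom, and Benjamini-Hochberg adjustment with a threshold of 0.05. Log2 fold changes and SE come from this fit, levels are TMM-scaled CPM. The fit was run on simulated counts in which libraries varied independently around a group mean, with results not reported here. No simulated library was set apart as CrAT24Mchow123, CrAT24Mchow136 and Wt24Mchow154 are, so the simulation does not cover their part. Alternatives were DESeq2 1.42.0, limma 3.58.1 (voom with library weights), other scaling and filters, and leaving out libraries. No 2 libraries of a group were alike within sampling noise (chi-square divided by its degrees of freedom, 11.8 to 69.0). No molecular identifiers are named in the labels, so depth bounds counting error only. The spread between samples of a group sets the precision (biological coefficient of variation 20.5%, common to all 22 libraries).

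Named genes are the 12 higher and 12 lower genes with the smallest p and a mean of at least 5 CPM, up to 4 and 2 members per list on its majority and other side, a fixed set, and the 8 and 8 genes with the widest gap between CrAT24Mchow123 and CrAT24Mchow136 and the other Pt-CrAT libraries. Some genes that this rule names are not reported here. The 49 gene lists, of which 34 are reported, and the members were chosen with earlier results of these data known, so lists are described by counts and medians with no test.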

Additional observations from a re-analysis of the deposited data

Results flagged for a closer look

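Within a group of 5, a library was taken as far from the others when its gap to the next one took up most of the group's range (Dixon's 95% critical value). Of 232 groups (116 genes, 2 genotypes) 20 were marked. For independent, normally distributed values about 1 in 20 would be marked by chance. These genes were named from the same data and share libraries, so the count cannot be set against that rate. CrAT24Mchow136 accounts for 12: it was high for Per1 (44.4 CPM), Tsc22d3 (62.7 CPM), Spp1 (182.6 CPM), Pdk1 (24.4 CPM), Per2 (35.6 CPM), Cry1 (12.3 CPM), Bhlhe40 (140 CPM), Hspa1b (14.9 CPM), Kcnj1 (110 CPM) and Foxi1 (23.2 CPM), and low for Crat (28.4 CPM) and Slc25a1 (39.8 CPM). Wt24Mchow154 accounts for 5: it was high for Per1 (20.3 CPM), Slx4 (9.88 CPM), Slc25a1 (104 CPM) and Nr1d1 (58.3 CPM) and low for Foxi1 (3.27 CPM). CrAT24Mchow123 accounts for 3, all low: Aven (13.0 CPM), Angptl4 (24.2 CPM) and Ccl2 (0.131 CPM). Genes in which CrAT24Mchow123 and CrAT24Mchow136 are both far from the other 3, such as Kap, are not marked by this measure, since each is the other's neighbour.

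The genotype groups of 6 genes were separate in opposite directions at 24 and 15 months. The difference between ages on the log2 scale was 1.08 for Klf2, -1.655 for Crat, -0.82 for Smim1, -0.70 for Slc25a1, 3.28 for Hspa1b and 1.81 for Foxi1. The edgeR interaction test did not call any of them (adjusted p 0.201 to 0.290).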

How the results depend on the processing

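No gene passed in edgeR with DESeq2 size factors, without a filter, with a stricter filter, with the 24-month libraries alone, or without CrAT24Mchow123 and CrAT24Mchow136. Leaving out single libraries gave 0 to 2 genes: Adamts15 and Stc1 without CrAT24Mchow124, Klf2 without CrAT24Mchow146, and Per1 without Wt24Mchow154. An alternative chosen after seeing the data, without CrAT24Mchow123, CrAT24Mchow136 and Wt24Mchow154, gave 1 gene (Per1). Each of these Per1 settings leaves out the fl/fl library highest for Per1, which was bound to widen its difference. DESeq2 gave 8 and limma-voom 3; for the difference between ages they gave 23 and, to 2 digits, 1.5e+02, and every other setting with 15-month libraries 0. Counts of genes with separate groups rise when a library is left out, since fewer libraries are compared: 149 to 350 higher and 153 to 3.3e+02 lower, with 281 and 256 without the 2 libraries and 440 and 439 without the 3. Crat stayed lower in all 18 alternatives, with adjusted p from 0.0646 to 0.999 over the alternatives.

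Of 115 other genes, 15 changed sign in at least 1 alternative; the cause was not tested. Without the 2 libraries log2 fold changes were -0.15 for Cdkn1a, -0.17 for Cyp2d26, 0.058 for Fn1, -0.21 for Gsta4 and -0.051 for Slc25a20; without the 3 they were 0.063 for Acadm, -0.17 for Cdkn1a, 0.00243 for the gene Cpt1a, -0.13 for Cyp24a1, -0.11 for Cyp2d26, 0.018 for Fn1, -0.23 for Gsta4 and -0.10 for Slc25a20. Limma-voom gave -0.052 for Cdkn1a and -0.063 for Slc25a20. Leaving out single libraries gave -0.0099 to 0.29 for Cdkn1a, -0.12 to 0.17 for Col1a1, -0.14 to 0.28 for Col3a1, -0.045 to 0.71 for Havcr1, -0.39 to 0.053 for Pdk4, -0.11 to 0.33 for Ppara, -0.64 to 0.14 for S100a8, -0.083 to 0.094 for Slc25a20 and -0.24 to 0.018 for Umod. Of 612 list medians under alternatives, 597 moved by less than the spread of the list's score over fl/fl libraries. That spread is wide for some lists, so the count does not show that medians are stable. The androgen-responsive list (spread 0.34) counts as unmoved, although its median went from -0.43 to -0.15 without the 2 libraries. No paired analysis was possible because no replicate number is shared between the genotypes.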
